A study of Mus musculus with 10 samples.

Results

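The replication-dependent histone genes were the 58 of 18901 listed genes whose symbols begin with Hist1h, Hist2h, Hist3h or Hist4h. They encode 6 linker histones of the H1 family, 14 H2A, 16 H2B, 11 H3 and 11 H4 proteins. They were chosen by symbol alone, so no measured value entered the choice.

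RNA came from 5 mouse lines on a mixed MF1 and 129 background, with 2 libraries of each. Oct4-GFP MEF, embryonic fibroblasts carrying a fluorescent reporter for *Oct4*, were sampled at passages 2 and 4. Fibroblasts given retroviral Oct4, Sox2, Klf4 and c-Myc had yielded the other 4 lines, all sampled at passages 5 and 25: pre-iPS cells, iPS cells of a control derivation, and clones 1 and 2 of iPS cells derived with rNetrin-1. Recombinant Netrin-1, a secreted ligand of dependence receptors, had been present while the last 2 were reprogrammed and absent from the control derivation. MEF grew in medium with fetal calf serum, and the iPS lines in serum replacement with leukemia inhibitory factor. For pre-iPS and iPS cells alike, the paper names this medium with or without the added inhibitors called 2i. It does not say which of these the sequenced libraries had. Each line is 1 derivation sampled at 2 passages, so a p-value here measures the spread between passages of a line and not between independent clones. Pre-iPS cells are partly reprogrammed and keep their retroviral transgenes active, and reprogrammed cells were kept on gelatin or irradiated fibroblasts.

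Replication-dependent histone genes are switched on as cells enter S phase, when new DNA has to be packaged. Their mRNAs are the well-known exception among messages of animal cells: they normally end in a conserved stem-loop, bound by the stem-loop binding protein Slbp, and carry no poly(A) tail. A minor polyadenylated form is made from cleavage sites farther downstream and is known from differentiating cells. The libraries were prepared from RNA captured on oligo(dT), so the values describe polyadenylated histone RNA and whatever else the capture carried over, not the bulk of histone mRNA.

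The genes form compact clusters in the mouse genome (GRCm38). The Hist1 genes lie on chromosome 13 in a block of 17 genes between positions 21715763 and 22043676 and a block of 31 between 23531050 and 23934851. The 7 Hist2 genes lie on chromosome 3, *Hist3h2a* and *Hist3h2ba* on chromosome 11 and *Hist4h4* on chromosome 6. In the GENCODE M21 models, which need not be those the authors counted on, 15 genes had no 3′ untranslated region (UTR) beyond 2 bases, 17 had a short one of 48 to 114 bases, and 26 had a long one of 150 to 4931 bases. *Hist1h3c*, at 114, lies just inside the short class and *Hist1h2bp*, at 150, just inside the long one. A stem-loop sequence followed the stop codon in 39 of the 58 models, 21 to 54 bases after it. Annotated ends lay 11 to 74 bases past the loop in the 16 short-UTR models that had one, and 108 to 4884 bases past it in the 23 long-UTR models.

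The stem-loops printed here belong to 3 genes high in MEF and then 5 high in iPS cells. They were chosen after their values were seen and all have a match, so they do not show how often either kind carries the signal. No match was found in the models of *Hist1h2bc*, *Hist2h2bb* and *Hist1h2ba*, high in MEF, or *Hist1h1a*, *Hist1h2ai* and *Hist1h3h*, high in iPS cells. Capitals mark the 16 bases of the stem and loop, and small letters the bases on either side. The letters were read 5′ to 3′ from GENCODE M21 transcripts, with U written as T.
Hist1h1c: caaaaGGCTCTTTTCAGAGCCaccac
Hist2h3c1: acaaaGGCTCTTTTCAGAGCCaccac
Hist3h2a: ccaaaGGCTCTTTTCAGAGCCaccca
Hist1h3c: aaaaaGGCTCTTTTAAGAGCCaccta
Hist1h2bj: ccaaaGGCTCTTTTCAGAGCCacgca
Hist1h2bk: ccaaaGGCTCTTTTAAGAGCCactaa
Hist1h4b: caaaaGGTCCTTTTCAGGACCactca
Hist3h2ba: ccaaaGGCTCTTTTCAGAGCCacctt
In this order they lie at chr13:23739507-23739532, chr3:96247322-96247347, chr11:58955167-58955192, chr13:23745042-23745067, chr13:22043633-22043658, chr13:22036295-22036320, chr13:23757361-23757386 and chr11:58949344-58949369 of GRCm38, on the plus strand except *Hist1h3c*. The core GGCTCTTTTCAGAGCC was found in 21 of the 39 genes, among them the 3 high in MEF, *Hist1h2bj* and *Hist3h2ba*, while *Hist1h3c* and *Hist1h2bk* had the core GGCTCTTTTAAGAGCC of 6 genes. The core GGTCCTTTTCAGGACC of *Hist1h4b* was shared with *Hist1h4j*. The distance from the loop to the annotated end was 840 bases for *Hist1h1c*, 1167 for *Hist2h3c1* and 1643 for *Hist3h2a*, against 74 for *Hist1h3c*, 23 for *Hist1h2bj*, 30 for *Hist1h2bk* and 28 for *Hist1h4b*. *Hist3h2ba*, which had the largest log2 difference of the histone genes tested between MEF and iPS cells, had 169 bases and belongs to the long-UTR class. Genes not printed here divide less cleanly. *Hist1h4d*, *Hist1h3e*, *Hist1h3f* and *Hist1h2ae*, called lower in MEF, had 770, 369, 365 and 151 bases. *Hist1h4h* and *Hist2h2ac*, called higher in MEF, had 46 and 57.

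A further shared feature is the paired arrangement of the genes. In 11 pairs, mostly of an H2A and an H2B gene, the start sites faced away from each other with 176 to 660 bases between them. The promoters of one pair high in MEF and one high in iPS cells are printed because the levels of paired genes are compared further on. The windows run from 250 bases before to 50 bases after the start of the named gene, on its strand (RefSeq, GRCm38.p6), at chr13:23683910-23684209 on the minus strand and chr13:22042948-22043247 on the plus strand. Capitals mark 3 motifs on either strand: the CCAAT box, the TATA box searched as TATAAA, and the octamer searched as ATTTGCAT, which POU factors bind.
Hist1h2ac: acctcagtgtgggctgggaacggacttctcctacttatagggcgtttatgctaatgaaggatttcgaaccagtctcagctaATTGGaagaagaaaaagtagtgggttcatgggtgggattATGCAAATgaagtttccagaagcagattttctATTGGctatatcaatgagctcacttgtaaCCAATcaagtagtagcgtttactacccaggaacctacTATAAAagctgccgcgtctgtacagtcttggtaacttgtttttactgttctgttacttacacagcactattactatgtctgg
Hist1h2bj: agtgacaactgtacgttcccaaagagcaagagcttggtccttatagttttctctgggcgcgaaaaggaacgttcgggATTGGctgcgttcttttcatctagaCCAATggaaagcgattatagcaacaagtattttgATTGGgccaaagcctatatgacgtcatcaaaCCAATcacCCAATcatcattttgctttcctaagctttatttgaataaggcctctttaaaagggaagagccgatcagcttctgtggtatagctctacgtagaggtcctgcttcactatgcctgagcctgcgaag
The first window spans the 251 bases between *Hist1h2ac* and *Hist1h2bc*, and the second most of the 270 bases between *Hist1h2bj* and *Hist1h2ag*. Promoter sequences were matched for 53 of the 58 genes, with 54 windows. CCAAT was in 87% of these windows and in 37.4% of the 32851 windows of all genes, TATAAA in 59.3% and 13.6%, and the octamer in 25.9% and 1.74%. Every H1, H2A, H2B and H3 window held CCAAT, and 30% of the H4 windows did. The octamer was in 50% of the H2A windows and 46.7% of the H2B windows, and these letters were in none of the H1, H3 and H4 windows. A match of letters is a description and not a bound site.

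Reads on genes, recovered from the deposited values, numbered 38110410 to 52946861 per library. The histone genes took 1661 to 8246 of these, 0.00366 to 0.0156%, and 28 of them had under 100 reads over all 10 libraries. The labels were checked against marker genes. All 8 fibroblast markers were called higher in MEF, and their sum in the iPS and pre-iPS libraries was 0.664 to 1.17% of the MEF mean, whose part in the histone values was not tested. *Nanog* was between 2489 and 7441 in the iPS libraries. Pre-iPS cells had 311 and 349.5 of it, and MEF 34.5 and 36.9. All 8 pluripotent markers, *Nanog* among them, were called lower in MEF than in iPS cells. In pre-iPS cells 5 were called lower, 1 was called higher and 2 were not called. Their log2 differences from iPS cells ran from -7.11 to 2.02 in pre-iPS cells, with a median of -1.55. Their sum was 409600 and 432400 in pre-iPS cells, against 125500 to 166000 in iPS libraries. The larger sum thus does not mean that most of these markers were higher in pre-iPS cells. MEF also held macrophage transcripts, with 4 of 5 tested markers called higher than in iPS cells (*Lyz2* at 6824 and 6951), and their part was not tested either.

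Because the genes resemble each other, reads of 50 bases cannot always be assigned. Over the 58 genes, a median of 53.6% of the 50-base stretches of a transcript were found in no other gene, and 14 of the 39 genes tested had under 50%. The share was 0 for *Hist2h3c1* and *Hist2h2bb*, whose sequence recurs in overlapping unnamed models. Values of such genes are uncertain where the counting split or dropped shared reads. *Hist3h2a* overlaps *Trim17* and *Gm44313* in the annotation, and 68.5% of its stretches were found in no other gene. *Hist1h1e* and *Hist1h2be* overlap on the same strand in the annotation, so their reads cannot be fully told apart. The kit did not mark the strand, so reads of genes that overlap on opposite strands cannot be separated either.

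**Figure D1:**
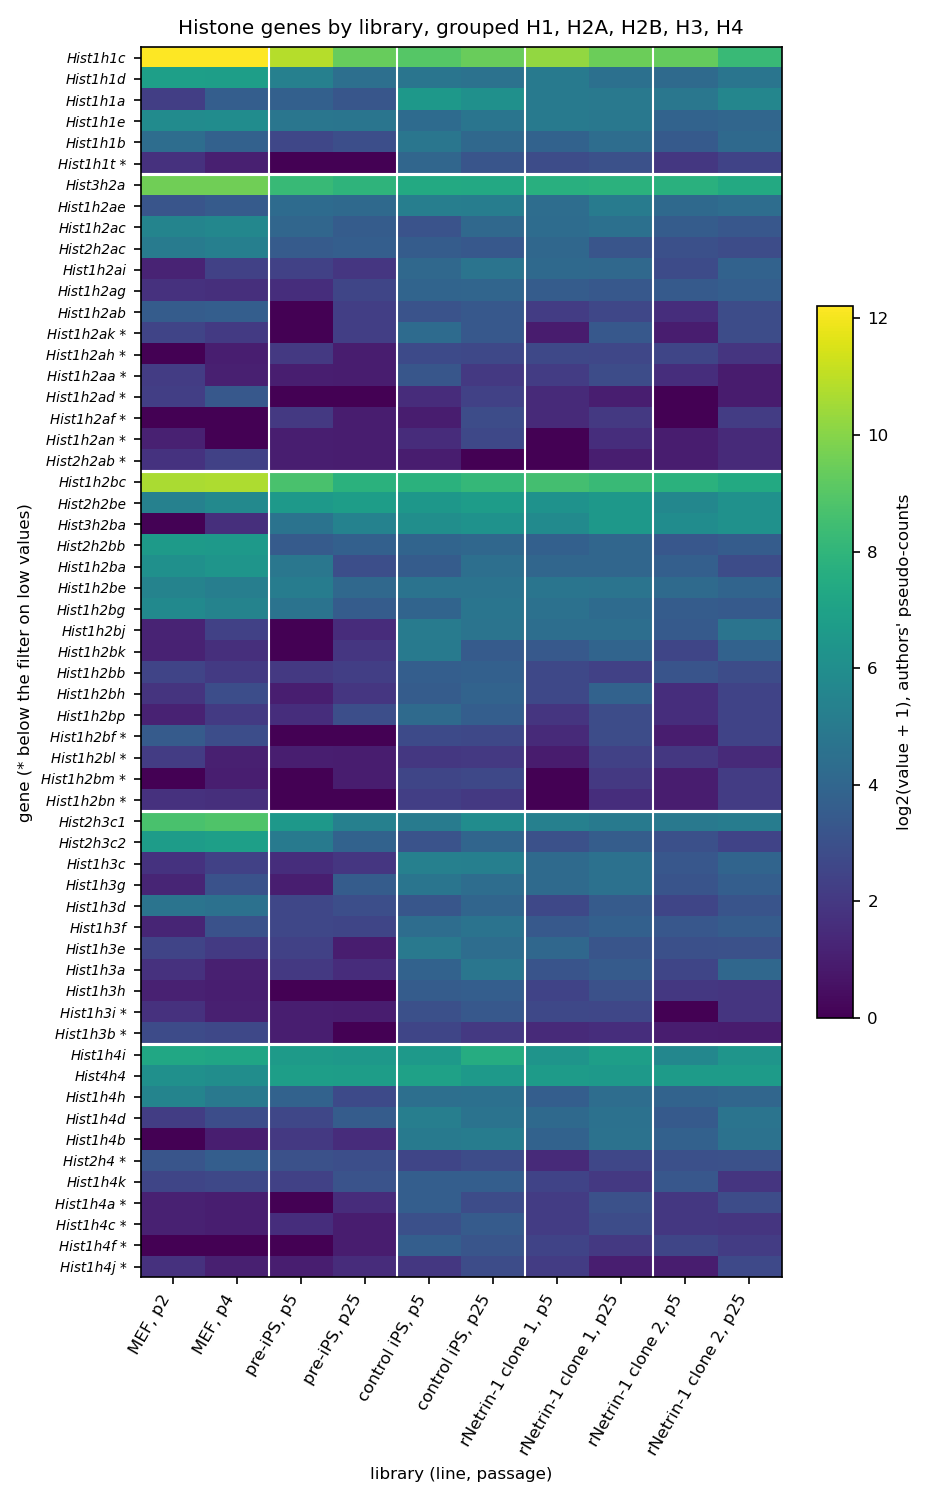
Heat map of log2(value + 1) of the 58 histone genes (rows, by family and falling mean) in the 10 libraries (columns, by line and passage), with an asterisk on the 19 genes below the filter. *Hist1h1c* and *Hist1h2bc* are bright in every library and brightest in MEF, while many H3 and H4 genes are darker in MEF and pre-iPS cells than in the control iPS line.

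A few genes supplied most of the histone RNA. Values are pseudo-counts, which are reads that the authors scaled to 1 effective library size. Their sum over the 58 genes was 8587 and 8703 in MEF. It was 3284 in pre-iPS cells of passage 5 and 1796 at passage 25, and in the same order 2102 and 2424 in the control iPS line, 2629 and 2247 for clone 1, and 1715 and 1488 for clone 2. The MEF mean of 8645 ± 81.8 (SD, n = 2) was 4.11 times the mean of the iPS libraries, 2101 ± 431 (SD, n = 6), and the groups did not overlap. The scaling left MEF with deposited totals of 56073322 and 55886953 over all genes, against 39745507 to 41772450 in iPS libraries, and as a share of reads the histone genes had 0.0153 and 0.0156% in MEF and 0.00366 to 0.00639% in iPS libraries. Pre-iPS cells, at 2540 ± 1050 (SD, n = 2), had 1 library above the iPS range and 1 inside it.

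*Hist1h1c*, which encodes a somatic linker histone, alone made up 55 and 54.4% of the sum in MEF and 20.9 to 45.8% in iPS libraries. Without it MEF had 3914 ± 75.9 (SD, n = 2) against 1423 ± 259 in iPS cells (SD, n = 6). The 5 highest genes of a library held 89 ± 0.12% of its histone value in MEF, 79.6 ± 5.65% in pre-iPS cells and 56 ± 3.74% in the control iPS line (SD, n = 2 each). The share in the control line was the lowest line mean, with 69.8 ± 7.12% in clone 1 and 64.7 ± 11.8% in clone 2.

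**Figure D2:**
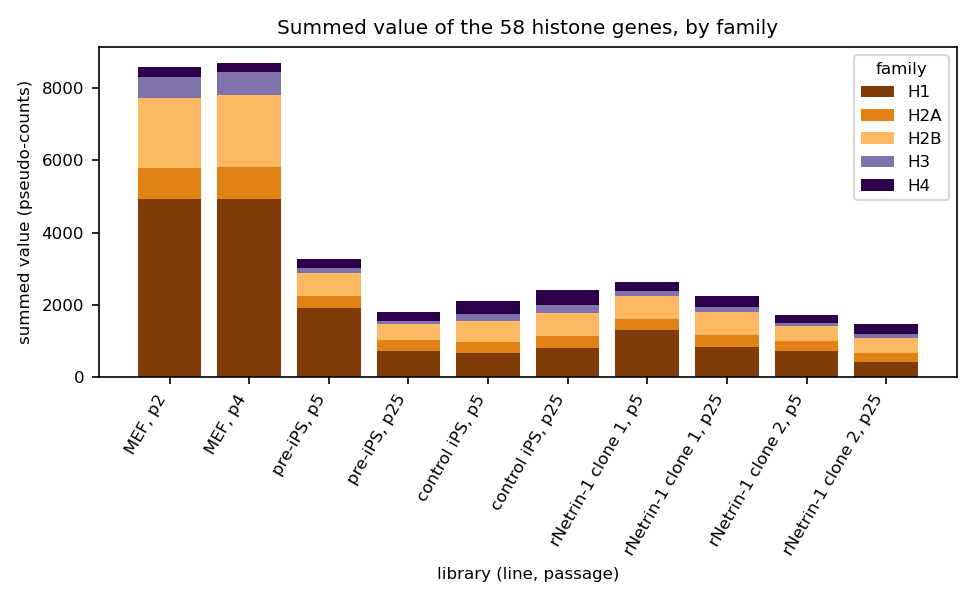
Stacked bars of the summed value of the 58 histone genes in each library, in pseudo-counts, divided by family. The MEF bars reach 8587 and 8703, with H1 and H2B as their largest parts, and the bars of the other lines lie between 1488 and 3284.

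Per kilobase of annotated exon, *Hist1h1c* ranked first and *Hist1h2bc*, an H2B gene, next in each of the 5 lines. *Hist1h1c* had 3030 pseudo-counts per kb in MEF, 799 in pre-iPS cells, 379 in the control line and 616 and 308 in clones 1 and 2. *Hist1h2bc* had 1410, 276, 219, 296 and 171 in the same order. The next rank went to *Hist1h4i*, an H4 gene, in pre-iPS cells, the control line and clone 1, to *Hist3h2a*, an H2A gene outside the main clusters, in MEF, and to *Hist3h2ba* in clone 2. Of the 58 genes, 33 had their highest line mean in the control iPS line and 22 in MEF, and 23 had their lowest mean in pre-iPS cells.

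For tests, 39 genes reached a value of 10 in at least 2 libraries and 19 did not. A gene was called where limma gave an adjusted p under 0.05 over the 17075 genes that passed this filter and the log2 fold change was 1 or more in size, on the log2(value + 1) scale, which understates the change of low genes. Of the 39, 14 reached the minimum only in iPS libraries, 1 only in MEF and 10 in every library, so a low gene entered through the line in which it was high, and the counts given next are descriptions. Fewer cells of a type and less RNA per cell cannot be told apart in these bulk samples.

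MEF were compared with iPS cells to set the starting fibroblast against its reprogrammed descendants. The genes went both ways: 14 were higher in MEF, 15 were lower and 10 were not called. Over all genes tested 21.6% were called higher and 26.6% lower, against 35.9 and 38.5% of the histone genes. The median log2 difference was -0.65 for the histone genes and -0.09 for all genes, and 36 of the 58 genes had a lower mean in MEF. The log2 difference was below 0 in 22 of the 39 tested, and 0 or below in 52.6% of all genes tested. The edgeR quasi-likelihood test on recovered reads also called 14 higher and 15 lower.

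Among H1 genes, 3 of 5 tested were higher in MEF and 1 was lower. *Hist1h1c* had 4727 and 4735 pseudo-counts in MEF, and 311, 663 and 1204 as the lowest, median and highest of the iPS libraries. The groups did not overlap, and the log2 difference was 2.92 ± 0.40 (SE, limma adjusted p = 0.000144). *Hist1h1d*, a further somatic linker histone, had 119 and 114 in MEF and 17.9 to 31.1 in iPS libraries, a log2 difference of 2.24 ± 0.30 (SE). *Hist1h1e*, of the same kind, differed by 1.44 ± 0.23 (log2, SE). *Hist1h1a*, a linker histone gene with a short UTR, had the opposite pattern, with 3.87 and 11.5 in MEF against 27.8 to 89.9 in iPS libraries. Its log2 difference was -2.54 ± 0.39 (SE, limma adjusted p = 0.000306). *Hist1h1b* stood at 19.8 and 12.8 in MEF, within the iPS range of 9.92 to 27.1. The testis linker histone *Hist1h1t* was below the filter, with 2.33 and 1.07 in MEF and 2.98 to 15.5 in iPS libraries.

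H2A and H2B, which pair as dimers on the nucleosome, divided likewise. Of 7 H2A genes tested 3 were higher and 3 lower, and of 12 H2B genes 4 were higher and 3 lower. *Hist1h2bc* stood at 1610 and 1644 in MEF against a lowest, median and highest iPS value of 169, 254 and 377, a log2 difference of 2.66 ± 0.23 (SE). *Hist3h2a* stood at 746 and 758 against 167, 189 and 222, a log2 difference of 1.98 ± 0.14 (SE). In both genes the MEF values lay above every iPS library. *Hist2h2bb* was at 100.5 and 96.1 in MEF and 8.93 to 15.7 in iPS libraries. *Hist1h2ba*, an H2B gene known from testis, was at 68.1 and 81.1 against 6.26 to 20.9. Its neighbour *Hist1h2aa*, likewise known from testis, stayed below the filter with 3.46 and 1.09 in MEF.

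The largest fold change among the histone genes ran the other way. *Hist3h2ba*, an H2B gene on chromosome 11, had 0.0452 and 2.09 pseudo-counts in MEF, from 0 and 2 reads, and 56.8 to 89.3 in the iPS libraries. The log2 difference was -5.27 ± 0.43 (SE), and the ratio of normalised reads was 61.7 in favour of iPS cells, with an exact 95% interval of 17 to 511 that covers counting error only. *Hist3h2a*, the other Hist3 gene, was higher in MEF. *Hist1h2bj*, *Hist1h2bk*, *Hist1h2ag*, *Hist1h2ai* and *Hist1h2ae* were lower in MEF too, with log2 differences of -2.67 to -1.35.

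H3 and H4 form the tetramer at the centre of the nucleosome. Of 9 H3 genes tested 3 were higher in MEF and 6 lower. *Hist2h3c1* had 411 and 456 in MEF against 29.8 to 59.5 in iPS libraries, a log2 difference of 3.53 ± 0.34 (SE). *Hist2h3c2* had 105 and 119 against 4.47 to 14.6, a log2 difference of 3.62 ± 0.40 (SE). These neighbours on chromosome 3 share sequence, so reads may have passed between them. *Hist1h3c* was at 2.46 and 4.2 in MEF and 8.93 to 38.7 in iPS libraries, a log2 difference of -2.35 ± 0.32 (SE). Among 6 H4 genes, *Hist1h4h* was higher and *Hist1h4b* and *Hist1h4d* were lower. *Hist1h4b* had 0.0226 and 1.05 in MEF and 12.9 to 33.4 in iPS libraries, and its ratio of normalised reads, 40.6 in favour of iPS cells, had an exact 95% interval of 7.18 to 1620, for counting error only, since MEF gave 1 read. *Hist4h4* was at 68.5 and 63.4 in MEF, below the iPS range of 97 to 125, but its log2 difference of -0.66 ± 0.17 (SE) was too small to be called.

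The other called genes had smaller values. Higher in MEF were *Hist2h2ac*, at 33.4 and 37.9 against 6.26 to 16 in iPS libraries, *Hist1h2ac*, at 45.2 and 48.5 against 7.73 to 21.6, and *Hist1h2bg*, at 54 and 43.4 against 9.85 to 26.1. *Hist1h3d* was the H3 gene of chromosome 13 that was higher, at 24.8 and 22.2 against 4.96 to 14.6. The 5 further H3 genes called lower, *Hist1h3a*, *Hist1h3e*, *Hist1h3f*, *Hist1h3g* and *Hist1h3h*, had no MEF value above 7.31 and log2 differences of -2.27 to -1.49. The 19 genes below the filter, 7 of them H2A, 4 H2B, 2 H3, 5 H4 and 1 H1, had no value above 18.4, that of *Hist1h2ak* in the control line at passage 5.

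**Figure D3:**
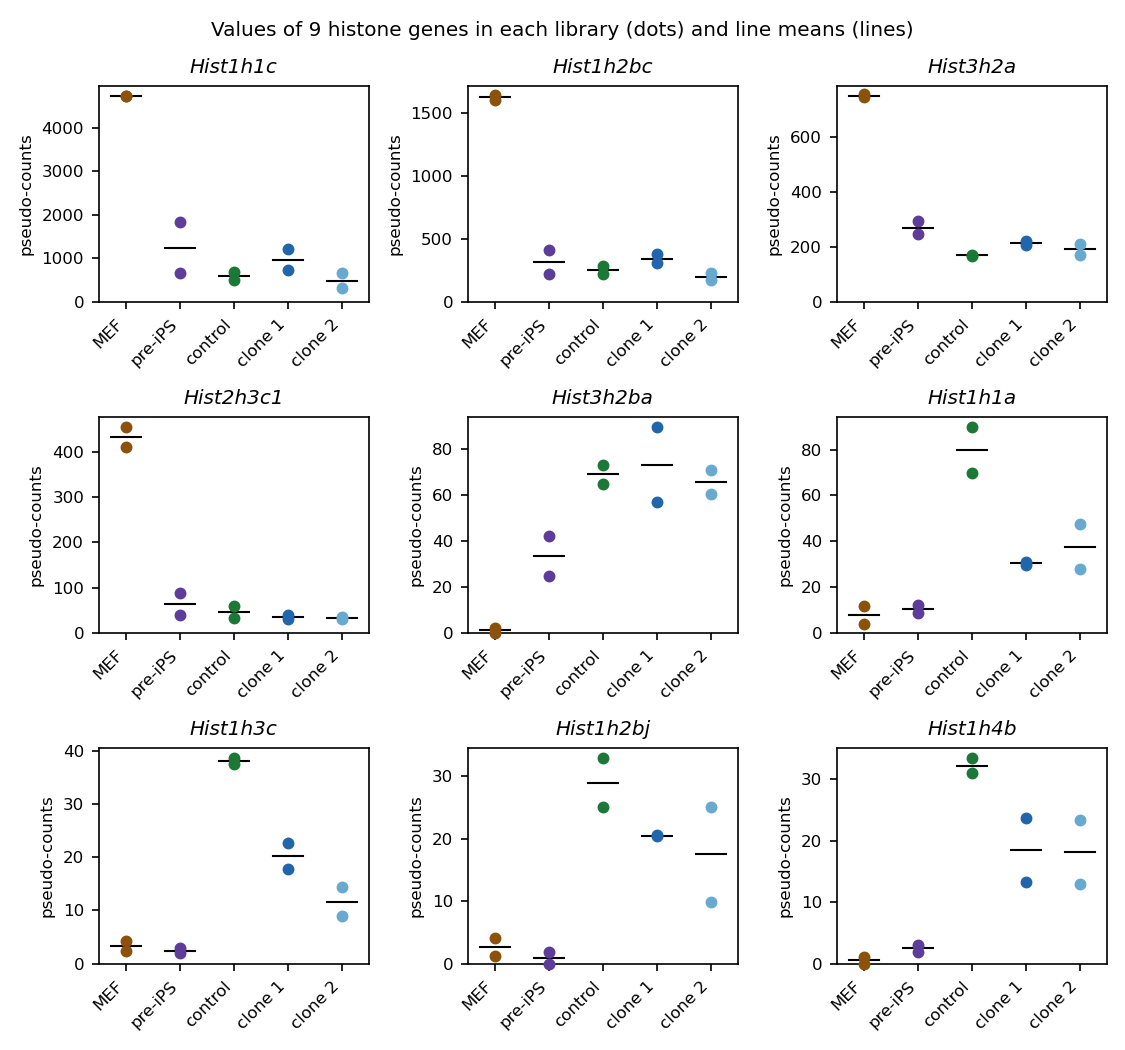
Pseudo-counts of 9 histone genes in each library (dots, by line) and the mean of each line (black lines), on vertical axes that start at 0 and differ between panels. *Hist1h1c*, *Hist1h2bc*, *Hist3h2a* and *Hist2h3c1* are highest in MEF, *Hist3h2ba* is near 0 there, and *Hist1h1a*, *Hist1h3c*, *Hist1h2bj* and *Hist1h4b* have their highest mean in the control iPS line.

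Of 3 other scalings, quantile normalization changed the balance. After quantile normalization 18 histone genes were called higher and 5 lower, with a median log2 difference of 0.73, and 19 of the 29 calls were shared. Median-of-ratios factors gave 14 higher and 15 lower, and scaling to 4 housekeeping genes 16 and 14. MEF libraries had 1542 and 1462 listed genes without a read, against 284 to 433 in iPS libraries, and their part in this shift was not tested.

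Pre-iPS cells were compared with iPS cells to set partial against full reprogramming. The called genes were nearly all lower: 13 were lower in pre-iPS cells, 1 was higher and 25 were not called. Over all genes tested 11.6% were called lower and 4.71% higher, against 33.3 and 2.56% of the histone genes. The median log2 difference was -0.49 for the histone genes and 0 for all genes, and 43 of the 58 genes had a lower mean than in iPS cells. The log2 difference was below 0 in 25 of the 39 tested, and 0 or below in 49.8% of all genes tested. Of the 13 lower genes, 10 reached the minimum value only in iPS libraries. The same iPS libraries serve both comparisons.

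Of 9 H3 genes tested, 4 were lower in pre-iPS cells. *Hist1h3c* had 2.04 and 2.88 pseudo-counts in pre-iPS cells against a lowest, median and highest iPS value of 8.93, 20.2 and 38.7. Its log2 difference was -2.66 ± 0.32 (SE, limma adjusted p = 0.000357). *Hist1h3h* was listed at 0 in each pre-iPS library, compared with 2.68 to 11.5 in iPS cells, at least 2.21-fold lower with a floor of 3 reads per library. *Hist1h3a* and *Hist1h3e* were lower too. The groups overlapped in none of these 4 genes, which is a description and no added support. Each was named because it was called, and each reached the minimum value only in iPS libraries.

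The other families each gave 2 or 3 lower genes. In H2B, *Hist1h2bj* had 0 and 1.92 in pre-iPS cells and 9.92 to 32.9 in iPS libraries, and *Hist1h2bk* 0 and 2.88 against 4.96 to 30.9. The ratios of normalised reads in favour of iPS cells were 22.6 (exact 95% interval 6.14 to 188) and 9.43 (3.12 to 46.6). They rest on 2 and 3 pre-iPS reads, and the intervals cover counting error only. In H4, *Hist1h4b* had 3.06 and 1.92 against 12.9 to 33.4, a log2 difference of -2.71 ± 0.40 (SE), and *Hist1h4d* was lower as well. In H1, *Hist1h1a* had 12.2 and 8.64 against 27.8 to 89.9, a log2 difference of -2.01 ± 0.39 (SE), and *Hist1h1b* differed by -1.35 ± 0.35 (log2, SE). *Hist1h2ag* and *Hist1h2ai* were the H2A genes called lower.

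The abundant genes were not among them. *Hist1h1c* had 1824 and 667 in pre-iPS cells, above and inside the iPS range, and its log2 difference of 0.82 ± 0.40 (SE) was not called (limma adjusted p = 0.137). *Hist1h2bc*, at 415 and 224, and *Hist1h4i*, at 99 and 89.3, overlapped the iPS range. *Hist2h3c2* was the gene called higher, at 31.6 and 13.4 against 4.47 to 14.6, and its groups overlapped. *Hist3h2ba*, at 24.5 and 42.2, lay below every iPS library and above both MEF libraries, and its log2 difference of -1.06 ± 0.43 (SE) from iPS cells was not called (limma adjusted p = 0.0782).

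With passage as a block, 17 genes were lower in pre-iPS cells and 0 higher. *Hist3h2ba* was gained (limma adjusted p = 0.00644), and *Hist2h3c2* was lost (limma adjusted p = 0.054). Without the pre-iPS library of passage 5 the count of calls was 8 in place of 14, of which 7 were shared. After quantile normalization 8 were lower and 2 higher, and the median became 0.14.

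**Figure D4:**
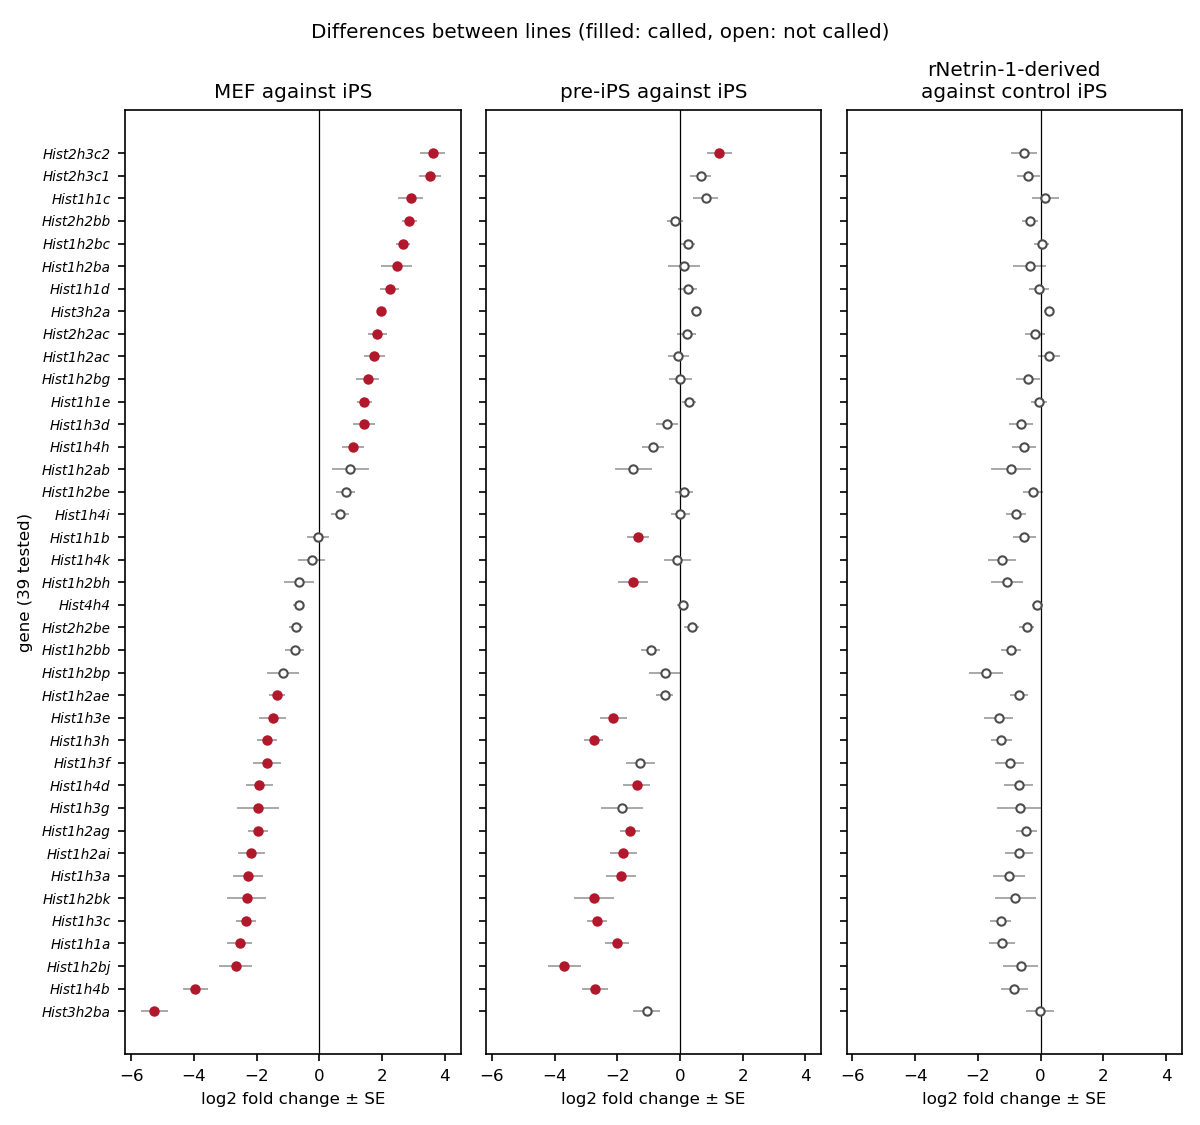
Log2 fold changes (points) with their SE (lines) of the 39 tested histone genes in 3 comparisons on a common axis, ordered by the first, with called genes filled. Filled points lie on both sides of 0 in MEF against iPS, nearly all left of 0 in pre-iPS against iPS, and are absent in rNetrin-1-derived against control iPS, where 35 of 39 points lie left of 0.

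Set against MEF, pre-iPS cells had 17 genes called lower and 3 higher, where 20.9% of all genes were called lower and 22.4% higher. Both lines enter the comparisons already given, so this one is not independent of them. *Hist2h2bb*, with 10.2 and 12.5 in pre-iPS cells, differed by -3.01 ± 0.30, *Hist2h3c1*, with 88.8 and 38.4, by -2.87 ± 0.42, and *Hist1h1c* by -2.10 ± 0.49 (log2, SE). The genes higher in pre-iPS cells were *Hist3h2ba*, with a log2 difference of 4.21 ± 0.52 (SE), *Hist1h4b* and *Hist2h2be*. *Hist1h4b*, with 5 reads in pre-iPS cells and 1 in MEF (limma adjusted p = 0.0484), lost its call in 13 of 20 alternatives, edgeR among them, and *Hist2h2be* in 4. *Hist2h2be*, an H2B gene, had 91.8 and 110.4 in pre-iPS cells, above its MEF values of 39.6 and 52.6. Genes low in both lines were not called between them: *Hist1h3c* differed by -0.30 ± 0.39 and *Hist1h1a* by 0.53 ± 0.48 (log2, SE). Quantile normalization gave 20 lower and 1 higher.

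The clones derived with rNetrin-1 were compared with the control line to see whether the ligand's presence went with a difference in the derived cells. None of the 39 histone genes was called by limma. An unadjusted limma p under 0.05 was found for 9 of them and for 3066 of all 17075 genes tested. Over all genes 0.99% were called higher and 1.12% lower. The edgeR test called 1 histone gene, *Hist1h3c*, and had 10 at an unadjusted p under 0.05. The difference was negative in 35 of the 39 genes, with a median of -0.64 against -0.01 over all genes, and 51 of the 58 had a lower mean in the clones. Over all genes tested, 51.4% had a difference of 0 or below. Neighbouring genes are not replicates, and the control arm is 1 line. Among the 39, *Hist1h2bb*, *Hist1h2bp*, *Hist1h3h* and *Hist1h4k* reached the minimum value only in the control libraries, so the filter favoured a negative difference in them.

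*Hist1h3c* had 38.7 and 37.5 pseudo-counts in the control line, 17.8 and 22.6 in clone 1, and 8.93 and 14.3 in clone 2. All 4 clone libraries lay below both control libraries, and the log2 difference was -1.28 ± 0.33 (SE, limma adjusted p = 0.0782). The adjusted p was 0.0476 with passage as a block, 0.0291 with a pseudocount of 5 (limma) and 0.0412 in edgeR, so the call turned on these choices. *Hist1h1a* had 89.9 and 69.9 in the control line, 31.1 and 29.8 for clone 1 and 27.8 and 47.5 for clone 2, also without overlap. Its log2 difference of -1.23 ± 0.42 (SE) was not called (limma adjusted p = 0.165). *Hist1h3h*, at 10.6 and 11.5 in the control line and 2.68 to 7.19 in the clones, and *Hist1h2bp*, at 17.4 and 11.5 against 1.98 to 6.16, had lower values in each clone library without being called. Both were tested only because they were high in the control libraries, so their lower clone values are a description. Among abundant genes, *Hist1h1c* was at 505 and 677 in the control line and 311 to 1204 in the clones, and *Hist3h2ba* differed by -0.01 ± 0.45 (log2, SE, 95% interval -1.04 to 1.02).

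Clones 1 and 2 were derived alike. No histone gene was called between them by limma or edgeR, and 3 had an unadjusted p under 0.05 by either test. By limma, 2831 of all 17075 genes tested had one. Over all genes 0.714% were called higher in clone 2 and 0.252% lower. The difference was negative in 33 of the 39 genes, with a median of -0.45 against -0.01 over all genes. Over all genes tested, 51.1% had a difference of 0 or below. *Hist1h1e* had 32 and 28.7 in clone 1 but 13.9 and 15.2 in clone 2, without overlap, and its log2 difference of -1.01 ± 0.28 (SE) was not called (limma adjusted p = 0.132). *Hist1h2bc* had 377 and 307 against 225 and 169, a log2 difference of -0.80 ± 0.29 (SE).

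Passage 25 was compared with passage 5 within the pre-iPS and iPS lines. No histone gene was called by limma or edgeR, with 6 and 4 at an unadjusted p under 0.05. By limma, 4971 of all 17075 genes tested were under 0.05. Over all genes 0.398% were called higher at passage 25 and 1.29% lower. The median log2 difference was 0.19 for the histone genes and -0.01 for all genes. From passage 5 to 25 *Hist1h1c* had 1824 and 667 in pre-iPS cells, 1204 and 718 in clone 1, 649.6 and 311 in clone 2, and 505 and 677 in the control line. Its log2 difference over the 4 lines was -0.71 ± 0.27 (SE, limma adjusted p = 0.135). With line as a block, leaving out either library of the control line leaves the other without information on passage. Both settings are therefore 1 comparison over the remaining lines, in each of which *Hist1h1c* fell. It was called there, at -1.09.

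Grouped by the annotated 3′ end, the genes gave different counts. Of the 12 tested genes with a short UTR, 8 were lower and 2 higher in MEF than in iPS cells, with a median log2 difference of -2.12. Of the 21 with a long UTR, 5 were lower and 10 higher, with a median of 0.84, and of the 6 without a UTR 2 were lower and 2 higher. In pre-iPS against iPS cells 7 short-UTR genes were lower and 0 higher, with a median of -1.86, and 3 long-UTR genes were lower and 1 higher, with a median of 0.01. Of the 6 without a UTR 3 were lower and 0 higher, with a median of -0.76. The classes differ in depth, with a median of 90 reads per short-UTR gene and 222 per long-UTR gene over the 10 libraries, and its part was not tested. The counts also depend on the filter. The short-UTR genes *Hist1h2bk*, *Hist1h2ag*, *Hist1h2bj*, *Hist1h3c*, *Hist1h2bb*, *Hist1h4b* and *Hist1h3a* reached the minimum value only in iPS libraries. Without the filter, the short-UTR genes *Hist1h2ad* and *Hist1h3b* were also called higher in MEF and *Hist1h4f* lower. The long-UTR genes *Hist1h1t*, *Hist1h4a* and *Hist1h4c* were then called lower in MEF. *Hist1h1d*, with the longest UTR of 4931 bases, was among the genes higher in MEF. *Hist3h2ba* and *Hist1h3e*, with UTRs of 213 and 421 bases, were lower in MEF, and *Hist1h4h* and *Hist2h2ac*, with 93 and 94 bases, were higher. A poly(A) signal, AATAAA or ATTAAA, was in the UTR of 19 of the 26 long models and 1 of the 17 short ones.

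Summed over the 32 genes with no or a short UTR, values were 499 and 463 in the control iPS line, 259 and 320.3 in clone 1, 188 and 288 in clone 2, and 344 and 352.5 in MEF. They were 113 and 109 in pre-iPS cells. The pre-iPS mean was 0.331 of the iPS mean and below all 6 iPS libraries, and both control libraries were above every other library. The MEF mean of 348 ± 6.13 (SD, n = 2) was 1.04 times the iPS mean, and *Hist2h2bb* and *Hist1h2ba* supplied 98.3 and 74.6 of it. Long-UTR genes made up 96 and 95.9% of the histone value in MEF, 76.3 to 90.1% in iPS libraries, and 96.6 and 93.9% in pre-iPS cells.

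**Figure D5:**
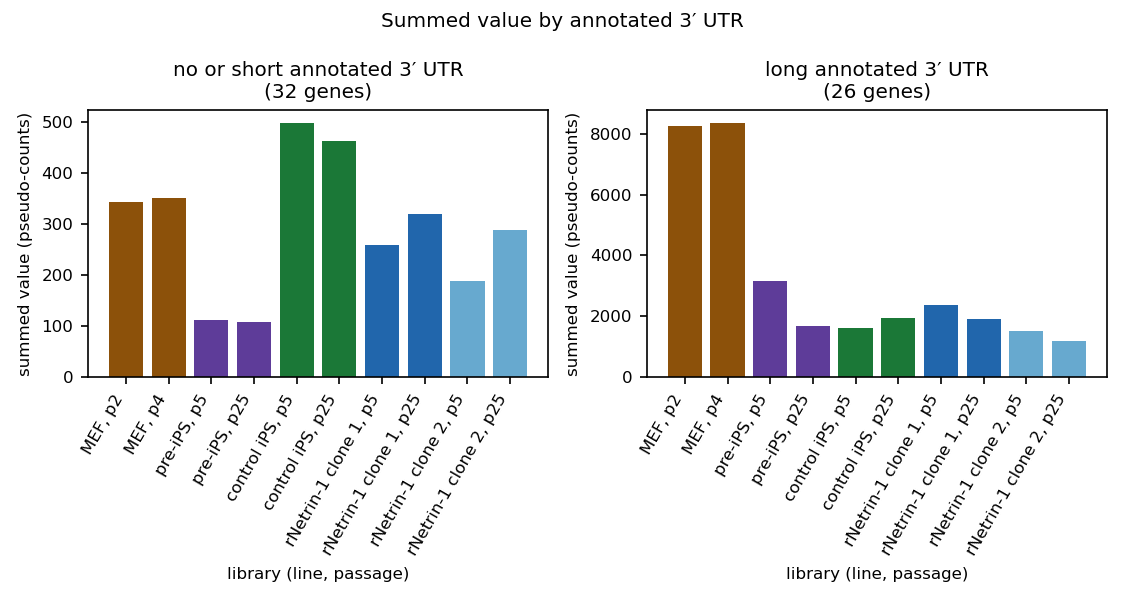
Summed pseudo-counts in each library of the 32 histone genes with no or a short annotated 3′ UTR (left) and the 26 with a long one (right), on axes that start at 0 and differ in scale. On the left the control iPS bars are highest, at 499 and 463, and the pre-iPS bars lowest, at 113 and 109, while on the right the MEF bars exceed all others.

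Neighbouring genes did not always move together. Of the 11 divergent pairs, 5 had both genes tested. *Hist1h2bj* and *Hist1h2ag*, 270 bases apart, were both lower in MEF, with log2 differences of -2.67 and -1.96, and in pre-iPS cells, with -3.69 and -1.58. *Hist1h2ac* and *Hist1h2bc*, 251 bases apart, were both higher in MEF, with 1.75 and 2.66. *Hist1h2ae* and *Hist1h2bg*, 176 bases apart, were called in opposite directions, with -1.35 and 1.54. *Hist2h2ac* was higher in MEF, with 1.85, while *Hist2h2be*, 239 bases away, had -0.75 and was not called. Of the 19 H2A and H2B genes tested, the 11 whose promoter window held the octamer included 6 higher and 2 lower in MEF, and the 6 whose window lacked it 0 higher and 4 lower. The filter passed 11 of 14 genes with the octamer and 6 of 14 without it. Without the filter, *Hist1h2ad* and *Hist2h2ab*, whose windows lacked it, were also called higher in MEF, so the 0 rests on the filter. The H2A gene *Hist1h2ah* was then called lower. *Hist1h2bc* and *Hist2h2be* had no matched window and are in neither group. By position, the first chromosome 13 block of 17 genes had 5 lower and 0 higher in MEF of 9 tested. These 5, *Hist1h2ai*, *Hist1h3h*, *Hist1h2bk*, *Hist1h2ag* and *Hist1h2bj*, reached the minimum value only in iPS libraries, so this count rests on the filter too. The second block had 9 of each among 22, and the Hist2 cluster 4 higher and 0 lower of 5. Of all genes tested, 21.6% were called higher and 26.6% lower. The prefix, UTR class and octamer overlap as groupings, and they were not tested against each other.

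Genes that act on histone mRNA were described from lists. Of 17 genes of histone mRNA 3′ end processing, 3 were lower in MEF (17.6%, against 26.6% of all genes) and 0 higher, with a median log2 difference of -0.62. *Slbp* was one, at 1980 ± 25.6 in MEF (SD, n = 2) and 4199 ± 277 in iPS cells (SD, n = 6), with *Cstf2*, a cleavage factor, and *Zfp473*, which binds the U7 snRNP complex. None was called in pre-iPS cells (median -0.12) or in the clones derived with rNetrin-1 (median -0.05). Of 11 genes of the histone locus body and histone gene transcription, 4 (36.4%) were lower in MEF, among them *Coil*, *Ccne1* and the octamer-binding factor gene *Pou2f1* (log2 difference -2.02). *Npat*, a coactivator of histone genes, differed by 0.01, and in pre-iPS cells none of these 11 was called.

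Of 24 DNA replication genes, 20 (83.3%, against 26.6% of all genes) were lower in MEF and 0 higher, with a median log2 difference of -1.70. Relative to the iPS mean, their summed value was 34.1% in MEF. It was 69.1 and 79% in pre-iPS cells, and the part of cell division in the histone values was not tested. In pre-iPS cells 1 of the 24, *Orc1*, was lower, with a median of -0.41, and in the clones derived with rNetrin-1 none was called. Among 19 histone chaperones tested 6 (31.6%) were lower in MEF, a share near that of all genes. In pre-iPS cells *Nasp* and *Hat1*, which handle newly made H3 and H4, were lower (10.5% of the chaperones, against 11.6% of all genes), with log2 differences of -1.02 and -1.24. Of 11 replication-independent variants tested, whose mRNAs are ordinarily polyadenylated, 5 (45.5%) were lower in MEF, *H2afz* and *Cenpa* among them, and *H1f0*, a linker histone of resting cells, was higher, with 1.08.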

How the data were processed

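Poly(A) RNA (TruSeq v2, 50-base single reads) was measured in 10 libraries. The deposited signal values are pseudo-counts that the authors made with edgeR, scaling read counts to 1 effective library size; the submitters' processing notes also name CASAVA 1.8.2, FastQC, TopHat2 2.0.8b, HTSeq 0.5.3p9 and mm10, and the annotation and counting mode are not given in the sources used here. Whole reads were recovered for 98.2% or more of the values of each library (within 0.1 read).

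Values were tested as log2(value + 1) with limma 3.58.1 (trend, R 4.3.3), 1 mean per line over 10 libraries, after a filter of 10 in 2 libraries, with Benjamini-Hochberg adjustment. Passage was tested over 8 libraries with line as a block. edgeR 4.0.16 (quasi-likelihood, TMM) was run on recovered reads. The code was tested on simulated data. Same-passage deviations correlated at 0.235 to 0.504 over 6 pairs of lines, so passage pairs the libraries. The comparisons between lines nevertheless come from a fit without passage, and passage as a block was an alternative on the 8 iPS and pre-iPS libraries. Named genes were taken by size and by family. The genes and lists were chosen with earlier results of these data known. Sequences came from RefSeq (GRCm38.p6) and GENCODE M21.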

Additional observations from a re-analysis of the deposited data

Results flagged for a closer look

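Within the iPS libraries or the 4 libraries of the rNetrin-1-derived clones, 6 of 80 gene and group sets held a library far from the others by Dixon's criterion, which chance meets in about 5% of sets. *Hist1h1a* was at 47.48 in clone 2 at passage 25 and *Hist1h3e* at 15.97 in clone 1 at passage 5, each the highest of the clone libraries. *Hist1h2bk* was at 30.94 and *Hist4h4* at 124.7 in the control line at passage 5, and *Hist2h3c1* at 59.45 in the control line at passage 25, each the highest of the iPS libraries. *Hist4h4* was at 97.51 in clone 1 at passage 25, the lowest of the clone libraries.

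The summed value of the 58 genes was higher by 322 at passage 25 than at passage 5 in the control line and lower in pre-iPS cells and both clones. *Hist1h1c* was higher by 172 in the control line and lower in the other 3. With 1 library per line and passage, these differences between lines were not tested.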

How the results depend on the processing

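Of the 63 calls in the 3 comparisons among MEF, pre-iPS and iPS cells, 26 were lost under at least 1 alternative and 37 under none, leaving aside the genes that the strictest filter did not test. Losses numbered 34 over 21 alternatives for pre-iPS against iPS (9 of 14 genes), 19 over 20 for MEF against iPS (11 of 29 genes) and 32 over 20 for pre-iPS against MEF (6 of 20 genes). None of the 44 called gene values followed one by one changed sign. With only genes of mean value 50 or more, which left 7 histone genes, calls were 0 for pre-iPS against iPS, 4 for MEF against iPS and 5 for pre-iPS against MEF. For rNetrin-1-derived against control iPS, 1 gene was called with a pseudocount of 5, with passage as a replicate block and with edgeR on recovered reads, a test chosen after seeing the data. The block changed no other count by over 1.5 times. Leaving out 1 library gave 8 to 15 calls for pre-iPS against iPS, 25 to 30 for MEF against iPS, 14 to 20 for pre-iPS against MEF (14 without MEF passage 2), 0 for the comparison with the control line and for the clones, and 0 to 1 for passage. Scaling to 4 housekeeping genes shifted the median of all genes by 0.39, to 0.30, in MEF against iPS, where the histone genes then had -0.28, and by -0.39 in pre-iPS against MEF.

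The summed value of MEF was 8903 with median-of-ratios factors, 8446 with quantile normalization, 10770 scaled to housekeeping genes, 3914 without *Hist1h1c* and 6405 per kb. Without *Hist1h1c* it was 1294 in pre-iPS cells, 1672 in the control line, and 1477 and 1121 for clones 1 and 2. With quantile normalization it was 1986 in the control line and 1410 in clone 2, and per kb 2150 in clone 1. The share of the 5 highest genes became 82.6% in MEF and 61% in the control line with quantile normalization. Without *Hist1h1c* it was 78.7% in MEF, 69.2% in pre-iPS cells, 46.2% in the control line and 56.6% in clone 1. Per kb it was 82.5%, 72.9%, 43.1% and 58.6% in these 4 lines and 52.3% in clone 2. The cause of these shifts was not tested. Low counts limit the 28 genes under 100 reads.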
